A study of Mus musculus with 2 samples.

Results

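Granzymes are serine proteases that killer lymphocytes keep in secretory granules, and perforin is the pore-forming protein released with them. The 10 mouse genes described here were Gzma, Gzmb, Gzmc, Gzmd, Gzme, Gzmf, Gzmg, Gzmk, Gzmm and Prf1. Every probe set annotated to 1 of these symbols alone was taken, which gave 12 probe sets of 45037 and 10 genes of 18193 named genes. The cells were day 5 blasts, the enlarged form of activated lymphocytes, of 5cc7 T cells cultured with MCC peptide for stimulation. The 5cc7 receptor binds this moth cytochrome c peptide on an MHC class II molecule, which is how CD4 T cells see antigen. They formed 1 group of 2 Affymetrix mouse 430 2.0 arrays, called set 1 and set 2 as in their titles, with no resting, untreated or later sample. Strain, age, the number of animals and the number of cultures are not given in the labels, and both descriptions read experiment 1 of 2, so the spread between the arrays may be technical.

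When a killer lymphocyte meets a target, its granules fuse with the membrane at the contact and empty onto the target cell. Perforin opens the way for granzymes into the target, where granzyme B cleaves after aspartate and starts apoptosis through Bid and caspases, and granzyme A, which cleaves after basic residues, acts on the SET complex. Both enzymes are best known from CD8 T cells and natural killer (NK) cells, and activated CD4 T cells can make them as well. Mice carry a row of further granzyme genes beside Gzmb, which includes Gzmc to Gzmg, and Gzmk lies next to Gzma.

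A probe set counted as above background when its intensity exceeded a bound on both arrays. The bound was 50.1 on set 1 and 54.6 on set 2, the 95th percentile of probe sets for genes specific to the liver, eye, pancreas or kidney. By this rule 39.0% of all probe sets and 48.3% of all named genes were above background. Of the members 2 of 12 probe sets and 2 of 10 genes were, namely Gzma and Gzmb. The median intensity was 43.7 over the 10 members and 53.9 over all named genes. Probes bind their transcripts with unequal strength, so each member is read against the bound and its own second array, and not against another member. Values are mean ± SD with n = 2 in the deposited linear intensity.

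Both detected members are granule proteases that kill target cells. Gzmb (probe set 1419060_at) read 807.1 on set 1 and 754 on set 2 (781 ± 37.5), which was 16.1 and 13.8 times the bound. Gzma (1417898_a_at) read 472.6 and 516.6 (495 ± 31.1), which was 9.44 and 9.45 times the bound. The arrays matched closely for both genes, with a log2 difference (set 2 minus set 1, less the median shift of 0.03) of -0.13 for Gzmb and 0.10 for Gzma. The SD of this difference was 0.19 over the 4752 probe sets with a mean intensity from 256 to under 1024. Each gene had 1 probe set, so no second probe set of the same gene was there to compare. Signal over the bound is weak evidence by itself, since 13 of 60 genes listed for other organs also passed. The brightest were Mbp at 494 ± 31.3, on 2 of 8 probe sets, and Tg at 432 ± 18.7. Whether these cells express such genes was not tested.

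**Figure D1:**
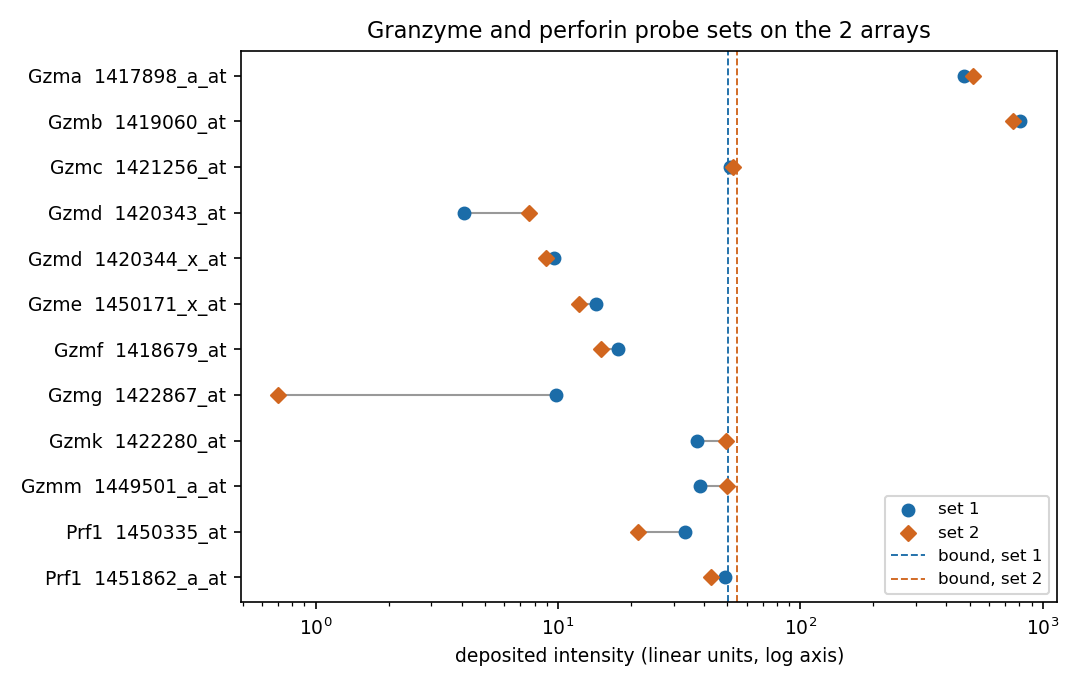
Deposited intensity of each of the 12 probe sets on set 1 (circles) and set 2 (diamonds), on a log axis, with a line joining the arrays and dashed lines at the bounds of 50.1 and 54.6. Gzma and Gzmb lie far to the right of both bounds on both arrays, Gzmc lies on the bounds, and the other probe sets lie to the left of the bound of their own array.

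Perforin, without which granzymes do not reach their substrates in the target, was not above background. The brighter of the 2 Prf1 probe sets, 1451862_a_at, read 48.9 and 42.6 (45.8 ± 4.45), or 97.7% and 78.0% of the bound. The other, 1450335_at, read 33.3 and 21.4 (27.4 ± 8.41), or 66.5% and 39.2%, with a log2 difference of -0.67. All 4 readings fell under the bound of their array, and the closest missed it by a few percent. The Prf1 signal thus could not be told from background, which does not show that the transcript was missing.

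Gzmc, the granzyme gene next to Gzmb, lay on the bound itself. Its probe set, 1421256_at, read 51.2 on set 1, which is 102% of the bound, and 52.9 on set 2, which is 96.8% (52.1 ± 1.20). It was the only member above the bound on 1 array alone. Its log2 difference was 0.02, against an SD of 0.52 for probe sets of this intensity, so the arrays differed in the call and hardly in the reading.

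Gzmk and Gzmm were under the bound on both arrays, and nearer to it on set 2. Gzmk, a trypsin-like granzyme, read 37.3 and 49.2 (43.3 ± 8.41), or 74.5% and 90.04% of the bound. Gzmm, which prefers methionine or leucine at the cleavage site, read 38.5 and 49.7 (44.1 ± 7.92), or 76.9% and 91.0%. Both were higher on set 2, with log2 differences of 0.37 and 0.34. For the 7393 probe sets with a mean intensity from 32 to under 64 the SD of the difference was 0.52, so neither difference exceeded the usual spread at this level.

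The remaining genes of the row beside Gzmb, Gzmd to Gzmg, were well under the bound. Gzmf read 17.6 and 15.1 (16.4 ± 1.77), at most 35.2% of the bound. Gzme read 14.4 and 12.2 (13.3 ± 1.56), at most 28.8%. The 2 probe sets of Gzmd read 4.1 and 7.6 for 1420343_at and 9.6 and 8.9 for 1420344_x_at, at most 19.2%. Gzmg read 9.8 and 0.7 (5.25 ± 6.43), with a log2 difference of -3.32 after intensities under 1 were set to 1. Differences were wide at this level, with an SD of 1.31 over the 13506 probe sets under 16, and Gzmg lay beyond that SD. A probe set annotated to both Gzme and Gzmd, which the rule leaves out, read 2.4 and 7.

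**Figure D2:**
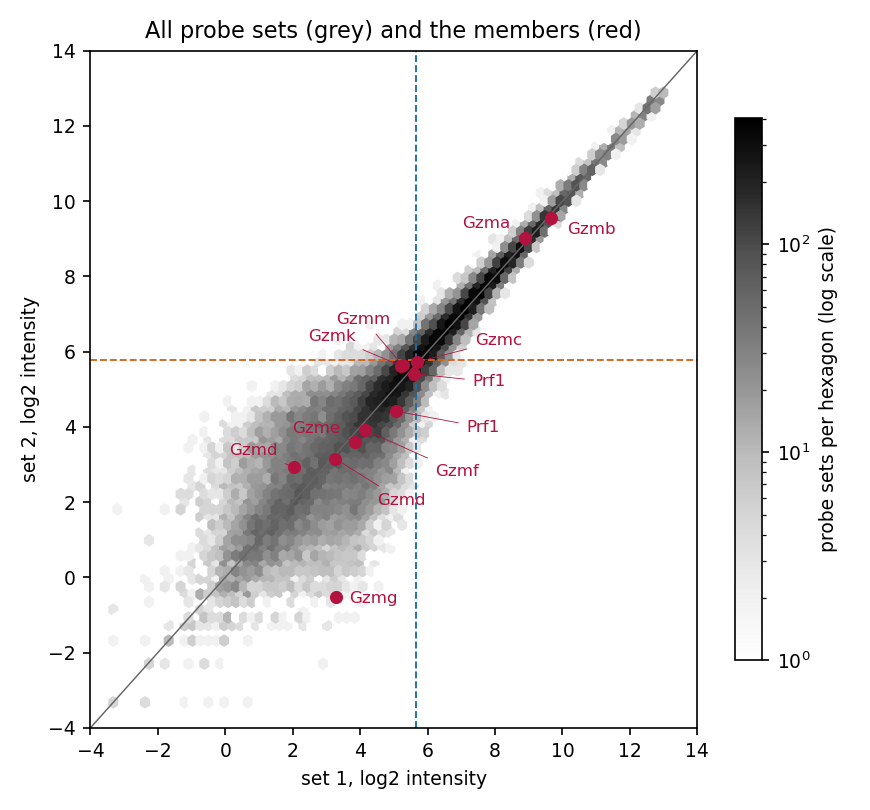
Log2 intensity on set 1 (x axis) and set 2 (y axis) of all 45037 probe sets as grey hexagons, shaded by their number, with the 12 member probe sets in red, the line of equal intensity, and the bounds as dashed lines. Gzma and Gzmb lie on the narrow upper arm, 5 probe sets of Gzmc, Gzmk, Gzmm and Prf1 lie in its lower end near the bounds or to the left of them, and Gzmd, Gzme, Gzmf and Gzmg lie in the wide lower part.

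None of the 2 member probe sets above background was more than 1.5-fold apart between the arrays. Of all 17550 probe sets above background, 529 (3.01%) were, 363 (2.07%) higher on set 2 and 166 (0.946%) lower. The arrays as a whole had medians of 36.4 and 37.9 and a Pearson r of 0.985 of log2 intensity across the probe sets above background, which are not independent replicates.

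Gzmb stood alone in its stretch of the genome. By gene order in RefSeq (GRCm38.p6), 15 protein-coding genes run from Cma1 to Gzmb on chromosome 14, first the mast cell protease genes, then Ctsg (cathepsin G of neutrophils), then the granzymes. Of the 13 that were measured, 1 was above background, Gzmb itself. Cma1, a mast cell chymase gene, read 46.8 and 60.3 and so passed the bound on set 2 alone. Mcpt1, Mcpt2, Mcpt4, Mcpt8, Ctsg and the granzyme gene Gzmn were between 3.7 and 20.1 on either array. Cma2 and Mcpt9 share 1 probe set and were not named. On the far side of Gzmb, Atp12a, a proton pump gene, read 16.7 and 1.8.

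**Figure D3:**
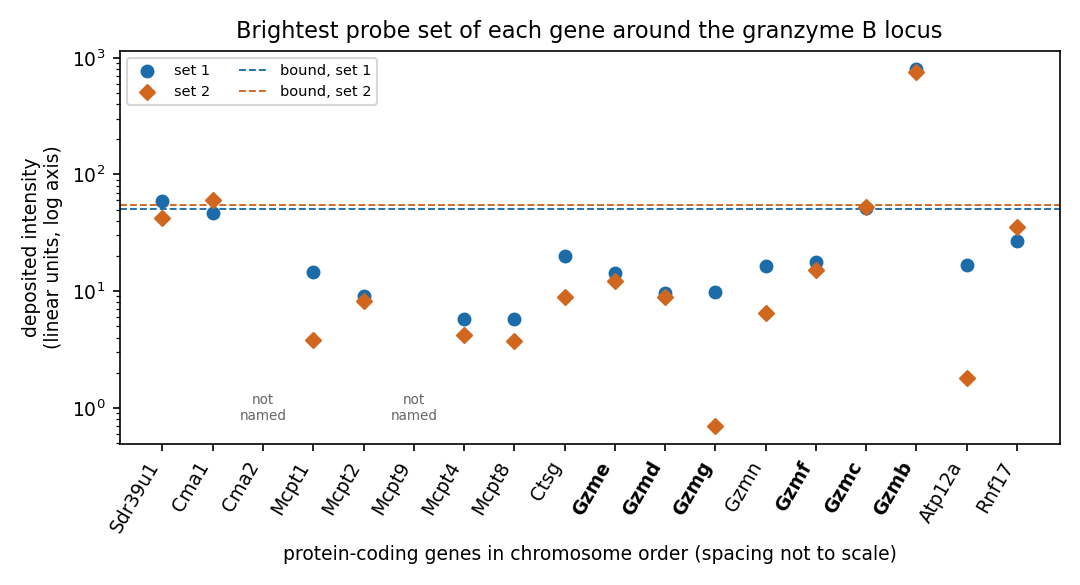
Intensity on set 1 (circles) and set 2 (diamonds), on a log axis, of the brightest probe set of each protein-coding gene from Sdr39u1 to Rnf17 in chromosome order, with the members in bold and the bounds as dashed lines. Gzmb is far above both bounds, Gzmc, Cma1 and Sdr39u1 touch them, and the other measured genes lie below.

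Gzma had a like position beside Gzmk on chromosome 13. Gzmk was under the bound, and so was Gpx8, the gene on the other side of Gzma, at 35.1 and 1.1. Esm1, on the far side of Gzmk, read 1.8 on both arrays. The 2 members of chromosome 10 had other surroundings. Gzmm lies between Cdc34, a ubiquitin-conjugating enzyme gene at 533.5 and 524.7, and Bsg, which encodes basigin, at 913.5 and 900.8, both above background. For Prf1, the neighbour Pald1 read 4.2 and 2.9 and Adamts14 was not analysed here.

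The sequences before the starts of these genes are shown because the members that share a row on chromosome 14 differ in detection. They are the 250 bases before the transcript start in RefSeq on GRCm38.p6, read 5′ to 3′ on the strand of the gene, which was the minus strand for the 4 printed. Windows were found for all 10 members, 11 in all, since Gzmm has 2 starts. Capitals mark matches, on either strand, to 6 short motifs. The RUNX motif was written as TGTGGTT. The motif of the AP-1 factors was written as TGANTCA. For the core of a cyclic AMP response element (CRE), the letters were ACGTCA, which overlaps itself on the other strand within the longer palindrome. The T-box motif was written as GGTGTGA. The motif of STAT factors was written as TTCNNNGAA. A TATA box was searched for by the letters TATAAA in the same way. Gzmb lies at chr14:56262335-56262584, Gzma at chr13:113100982-113101231, Gzmc at chr14:56234658-56234907 and Gzmd at chr14:56132594-56132843.
Gzmb: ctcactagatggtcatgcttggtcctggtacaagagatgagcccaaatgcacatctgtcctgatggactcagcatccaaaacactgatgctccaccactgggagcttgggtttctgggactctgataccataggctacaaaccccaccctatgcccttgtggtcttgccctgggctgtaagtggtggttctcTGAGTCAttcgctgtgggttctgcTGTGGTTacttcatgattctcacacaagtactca
Gzma: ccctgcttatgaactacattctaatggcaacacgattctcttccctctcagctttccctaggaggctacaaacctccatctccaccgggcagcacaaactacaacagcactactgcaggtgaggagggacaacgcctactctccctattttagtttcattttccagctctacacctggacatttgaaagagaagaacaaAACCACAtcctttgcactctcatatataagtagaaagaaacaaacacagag
Gzmc: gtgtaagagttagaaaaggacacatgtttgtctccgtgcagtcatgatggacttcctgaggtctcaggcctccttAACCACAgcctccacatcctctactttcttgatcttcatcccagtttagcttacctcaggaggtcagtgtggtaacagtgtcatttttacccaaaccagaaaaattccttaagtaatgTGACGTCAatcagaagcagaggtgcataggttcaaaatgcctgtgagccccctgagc
Gzmd: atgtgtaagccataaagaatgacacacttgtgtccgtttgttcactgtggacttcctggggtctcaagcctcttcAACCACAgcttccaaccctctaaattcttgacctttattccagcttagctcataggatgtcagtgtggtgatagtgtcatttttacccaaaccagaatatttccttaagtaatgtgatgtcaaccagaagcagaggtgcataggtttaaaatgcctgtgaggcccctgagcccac

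The RUNX letters were in 7 of the 11 windows, those of Gzma and of Gzmb to Gzmg, against 4.40% of the 32851 windows of this length in the table. RUNX factors with their partner Cbfb are known regulators of cytotoxic genes. The place of this exact match differed. It began 34 bases before the start in Gzmb, 51 in Gzma, and between 175 and 196 bases before it in Gzmc to Gzmg. In Gzmb the letters lay on the strand of the gene, and in the others on the opposite strand. With another last letter they also stood on the strand of the gene in Gzmc, as tgtggta. In Prf1 they stood so on the opposite strand, as gaccaca. Whether the place of the match bears on detection was not tested. The AP-1 letters were in the Gzmb window alone among the members, 58 bases before the start, and in 6.75% of all windows. CRE core letters were in the windows of Gzmc, Gzmf, Gzmg and Prf1 and in 6.47% of all windows. T-box letters were in Gzmk and 1 Gzmm window (3.33% of all), STAT letters in the other Gzmm window (7.02%) and the exact TATA letters in no member's window (12.4%). Near forms, such as tatataag in the Gzma window, were not counted, so a TATA box is not excluded. These matches describe letters in a window of fixed length and are not binding sites shown by these data.

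Gzmb also differed from its neighbours over the whole window. After global alignment the windows of Gzmc, Gzmd, Gzme, Gzmf and Gzmg were 70.2% to 94.8% identical over their 10 pairs, with a median of 79.0%, and Gzmd and Gzme were the closest. The 5 pairs of Gzmb with these genes were 43.8% to 48.0% identical. The other 40 pairs of member windows gave 43.8% to 50.7%. The windows of these 5 genes shared much of their sequence, so their motif matches do not count as separate observations.

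**Figure D4:**
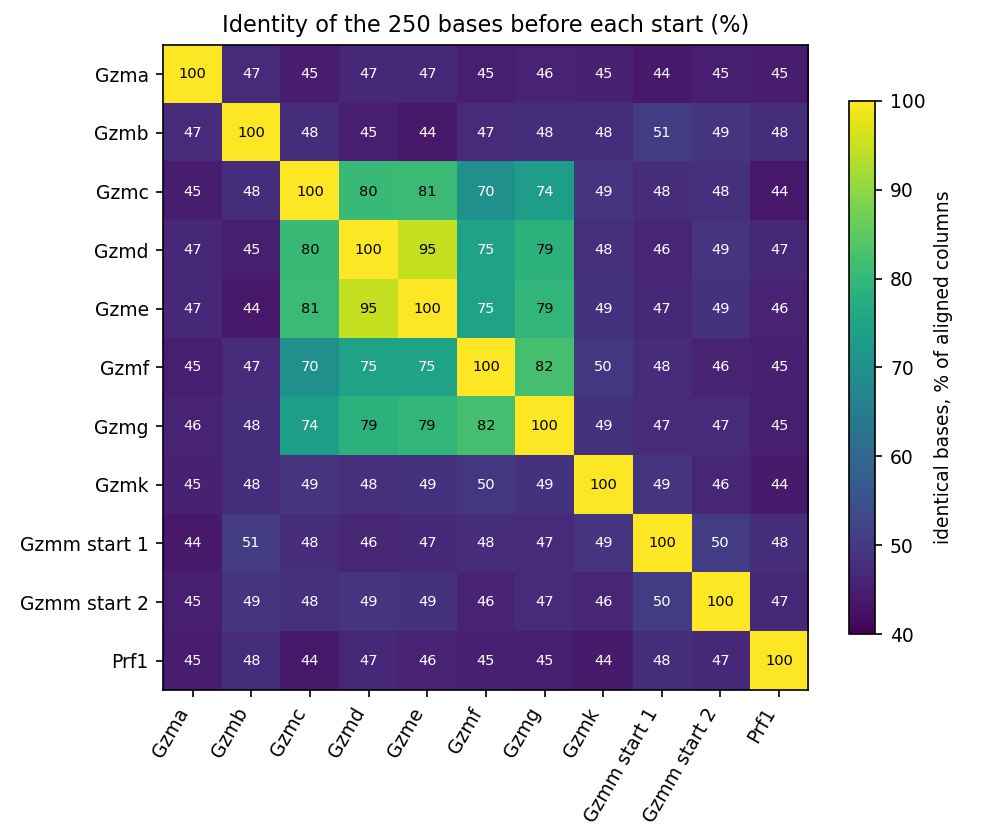
Identical bases as a percent of aligned columns for each pair of the 11 member windows of 250 bases before a transcript start. The block of Gzmc to Gzmg holds values from 70.2% to 94.8%, and Gzmb shows no more identity to that block than to the genes of other chromosomes.

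Around the members, most genes listed for the granule pathway were detected. The 8 lists cover storage, release, inhibitors, substrates, transcription factors, cytokine receptor inputs and other killing routes. Over all 8 together, 83 of 89 measured genes were above background, beside 48.3% of all named genes. The lists were chosen by role, not for being limited to killer cells, and with earlier results of these data known. Their higher share is therefore no evidence that the pathway was in use. Some genes named here were picked after their values were seen, and these are Ctsw, Cst7, Nkg7, Rab27a, Unc13d, Stx11, Stxbp2, Lyst, Bid, Mcpt1, Mcpt2, Mcpt4, Mcpt8, Tbx21, Runx3 and Prdm1.

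For storage and processing, 13 of 13 genes were above background, with a median intensity of 607. Ctsc, the protease that trims granzyme precursors to the active form, read 957.3 and 978.9, although 1 of its 3 probe sets carried the call. Srgn, the proteoglycan that holds granzymes and perforin in the granule, read 3501.5 and 3304.6. M6pr, a mannose 6-phosphate receptor that sorts granzymes, read 1037.8 and 1045.4, and Calr, a calcium-binding chaperone also found in granules, 1529 and 1645.8. Ctsw, Cst7 and Nkg7, genes typical of cytotoxic lymphocytes, were at 756 ± 16.7, 607 ± 29.3 and 475 ± 10.6. These values stood beside a Prf1 signal under the bound in the same RNA.

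For granule docking and release, 17 of 18 genes were above background, with a median of 237. Rab27a, Unc13d, Stx11, Stxbp2 and Lyst, whose loss impairs granule release, were at 226 ± 18.0, 192 ± 29.2, 212 ± 21.9, 248 ± 32.5 and 325 ± 13.2. Of their probe sets, 2 of 4 passed for Rab27a and 2 of 3 for Lyst. Syt7, a calcium sensor of lysosome fusion, read 30.1 and 45 and was the exception.

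Inhibitors that guard cells against granzymes were above background in 4 of 5 cases, with a median of 147. Serpinb9, the inhibitor of granzyme B, read 152.6 and 141.5, with 1 of 2 probe sets above background. Serpinb6a and Serpinb6b, serpins of the same clade, were at 1391 ± 86.7 and 250 ± 31.7. Serpinb9b, a serpin that inhibits granzyme M, read 50.6 and 91.7, so it passed narrowly on set 1. Serpinb1a read 9.2 and 18.8 and did not pass.

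Genes listed as granzyme B substrates, or as granzyme A substrates with the SET complex, were above background in all but 1 measured case. Not every listed protein is itself cut by a granzyme. For the granzyme B list the count was 7 of 7, with a median of 304. It included Bid at 102 ± 22.9, with 1 of 3 probe sets above background. Dffa, the inhibitor of the caspase-activated nuclease, was at 304 ± 47.3, with 1 of 2 probe sets above background. Parp1, a DNA repair enzyme, was at 372 ± 10.4. For granzyme A substrates and the SET complex the count was 6 of 7, with a median of 566.5. It included Set at 2365 ± 149, Hmgb2 at 1757 ± 316 and Apex1 at 566 ± 33.4. The exception was Lmna, a lamin gene, at 32.9 and 59.6.

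Transcription factors of the cytotoxic programme were above background in 21 of 23 cases, with a median of 409.95. Eomes, a T-box factor that drives Prf1 in CD8 T cells, read 21.7 and 25.1 and was not above background. Its relative Tbx21 (T-bet) read 188.8 and 217.9 and was. Runx3, the RUNX factor of cytotoxic cells, was at 429 ± 19.4, Cbfb at 1164 ± 58.5 and Prdm1, the repressor Blimp-1, at 162 ± 4.81. The brightest of the list were Ikzf1 at 2113.5 ± 9.33, Bhlhe40 at 1628 ± 123, Bach2 at 1306 ± 1.77 and Cbfb. The count of genes above background does not show whether a factor raises or lowers granzymes. Fos, a part of AP-1, was the other gene not above background, at 43.6 and 45.9. Among the receptors and kinases for interleukins that raise granzymes 10 of 10 were above background, with a median of 311 and the interleukin 2 receptor chains Il2ra at 437 ± 35.1 and Il2rb at 801 ± 25.2.

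Genes listed with the routes of killing that use no granule were above background in 5 of 6 cases, with a median of 133. Not every listed gene encodes a death ligand. Fasl, the ligand of the death receptor Fas, read 352.4 and 306.5 and Tnfsf10 (TRAIL) 132 and 149.6, the latter with 2 of 3 probe sets above background. Tnf read 137.4 and 113.1, Lta 113.2 and 98.7 and Ltb 3414.2 and 3468.1. Ifng, the interferon that accompanies killing, read 27.4 and 23.8 and was not above background. Genes of pore proteins and granule enzymes made mainly by other cells were mostly under the bound. Of the pore proteins related to perforin 1 of 6 passed, Mpeg1 of macrophages at 96.6 ± 3.18, and the complement genes C6, C8a, C8b, C8g and C9 did not. None of 3 neutrophil granule genes, the serine protease genes Elane and Prtn3 and the peroxidase gene Mpo, passed, with values from 3.1 to 38.6.

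**Figure D5:**
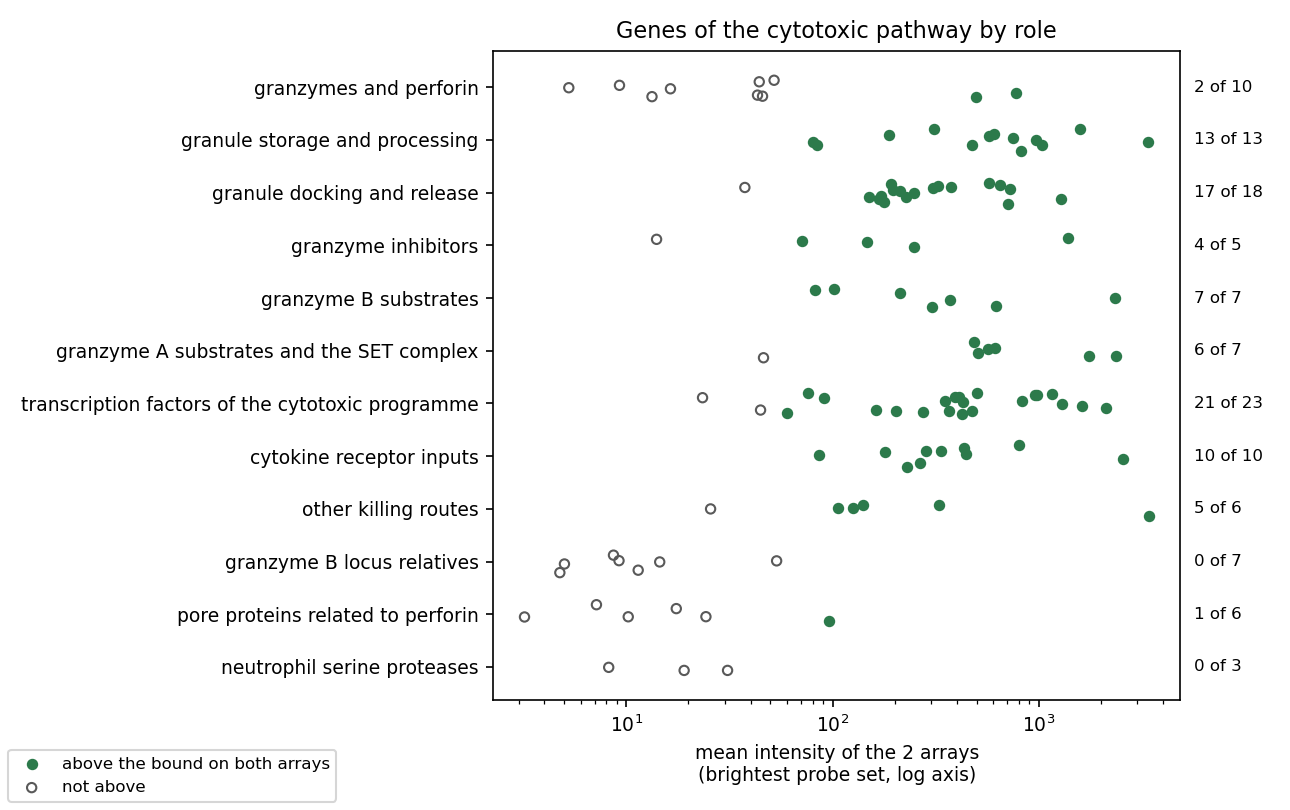
Mean intensity of the 2 arrays, on a log axis, of the brightest probe set of each measured gene in 12 lists, with filled points for genes above the bound on both arrays and open points for the others, and the count of genes above at the right. The members (2 of 10) spread over both sides. The 8 lists of storage, release, inhibition, substrates, control and other killing routes are mostly filled, and the 3 lists of relatives at the bottom hold 1 filled point.

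Granzymes and perforin are made by several cell types, and the RNA was that of a whole culture, in which fewer cells of a type and less RNA per cell cannot be told apart. T cell markers were above background in 7 of 7 cases, beside 48.3% of all named genes, with Cd3e at 1398 ± 46.7. Cd4 was at 1119 ± 95.2 and Zbtb7b, the CD4 lineage factor, at 408 ± 42.9, while Cd40lg read 37.8 and 44.5. Both CD8 lineage genes also passed, Cd8b1 at 190.5 and 235.3 and Cd8a at 65.6 and 67.3, the latter on 2 of 5 probe sets. Of 10 NK cell markers 4 passed, among them the lectin receptor genes Klrd1 at 1630 ± 75.1, Klrk1 at 460 ± 15.6 and Klrc1 at 223 ± 19.9, which T cells can express as well. Ncr1, the receptor that defines NK cells, read 3.8 and 22.7, and Klra1 read 0.9 and 0.7. The summed intensity of the NK list was 2435 on set 1 and 2575 on set 2, and Klrd1, Klrk1, Klrc1 and Nfil3 carried nearly all of it. The other 6 markers summed to 80.9 and 95.6. The summed intensity of the 2 CD8 genes was 256 and 303. Such sums depend on the number of genes listed and on probe strength, so they do not measure the share of a cell type.

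Mast cells can make granzyme B too. Their markers passed in 2 of 11 cases, Kit at 494 ± 100.6 and Gata2 at 71.4 ± 13.4, the latter on 1 of 2 probe sets. Summed intensities over the list, with the same limit, were 712 and 829. Kit made up most of that sum, at 422.8 on set 1 and 565 on set 2, and the 9 markers not above background summed to 208 and 202. The defining genes Cpa3 and Fcer1a read 51.2 and 45 and 26.3 and 12. In the list of regulatory and NKT cell markers 2 of 4 passed, near the 48.3% of all named genes. These were Ikzf2 on 2 of 3 probe sets and Ikzf4 on 1 of 3. Foxp3, the factor of regulatory T cells, which can carry granzyme B, read 18.6 and 12.9. B cell markers passed in 5 of 7 cases, with Ms4a1 at 377 ± 17.4. Macrophage and dendritic cell markers passed in 1 of 12, Csf1r at 102 ± 63.2 on 2 of 3 probe sets. The defining gene Adgre1 read 39.7 and 76.6 and so passed the bound on set 2 alone. The part of other cell types in the Gzma and Gzmb signal was not tested.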

How the data were processed

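The deposited table held 1 intensity for each probe set of each array. That the unit is linear was inferred from its range, with none below 0. How the authors corrected background, summarised probes and scaled arrays is not given in the sources consulted. Of 45101 probe sets, 64 controls of the manufacturer were left out. The platform annotation of GEO gave 34945 of the remaining 45037 probe sets 1 gene symbol, 932 probe sets had several and were not named, and 9160 were not listed. All 12 member probe sets matched the RefSeq gene table by Entrez identifier.

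The bound of each array was the 95th percentile of 65 probe sets of 47 off-tissue genes. A gene was above background when at least 1 probe set exceeded the bound on both arrays, and the brightest probe set gave its level. The members and lists were chosen with earlier results of these data known. All members were named. From each other list up to 4 genes with the highest intensity above background and up to 3 others in alphabetical order could be named, along with every gene of short lists and of T cell lists, defining markers and genomic neighbours. With 1 group of 2 arrays there was no comparison between groups and no test, and having only 2 arrays limits the precision. Windows before starts were aligned globally (match 1, mismatch -1, gap opening -3, extension -1) with Biopython 1.88. Other steps used Python 3.11.15, numpy 2.4.6 and pandas 2.3.3.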

Additional observations from a re-analysis of the deposited data

How the results depend on the processing

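The number of members above background depended on the bound. It rose from 2 to 6 of 10 genes, and from 2 to 6 of 12 probe sets, with the 90th percentile of the first off-tissue list (35.4 and 36.6) and with the median of all probe sets (36.4 and 37.9). The share of all named genes above background rose as well, from 48.3% to 56.1% and 55.4%, so that 6 of 10 members is near it. The 4 genes added were Gzmc, Gzmk, Gzmm and Prf1. It stayed at 2 with the 99th percentile, the second off-tissue list and quantile normalization of the arrays, and, for genes, with the median over probe sets. Leaving out 1 array gave 2 to 3 genes and 2 to 3 probe sets, the third being Gzmc on set 1 alone. With only probe sets whose name ends in _at and no further letter, 1 of 7 genes and 1 of 7 probe sets remained, since Gzma, Gzme and Gzmm have no such probe set and the 1 was Gzmb. Gzmd, Gzme, Gzmf and Gzmg were above background under none of the alternatives in which they were measured, and Gzma and Gzmb under all of them. The count of members over 1.5-fold apart was 0 in 4 alternatives and 1 of 12 when all probe sets were counted with intensities under 16 set to 16. That 1 was Prf1 1450335_at, at a log2 difference of -0.67. The pathway lists gave 74 of 89 genes with the second off-tissue list, under which 37.7% of all named genes passed, and 84 of 89 with the 90th percentile, under which 56.1% did. With _at probe sets alone they gave 65 of 73, beside 44.3% of all named genes. With the median over probe sets they gave 77 of 89, beside 41.4%, so some calls rested on part of a gene's probe sets. Some cell type counts moved too. Cd8a no longer passed with the 99th percentile, the second off-tissue list or the median over probe sets, which left 1 of 2 CD8 genes. Macrophage and dendritic cell markers rose from 1 to 5 of 12 with the 90th percentile and with the median of all probe sets. Mast cell and basophil markers rose from 2 to 4 of 11 under both, and fell to 1 of 11 with the 99th percentile. No paired analysis was possible because there is only 1 group.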
